A study of Mus musculus with 34 samples.

Results

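The dual specificity MAP kinase phosphatases were followed in CD4+ spleen cells from mice of 5 inbred strains, unstimulated and stimulated. The members were 10 genes, Dusp1, Dusp2, Dusp4, Dusp5, Dusp6, Dusp7, Dusp8, Dusp10, Dusp14 and Dusp16, out of 19938 genes that the arrays' annotation named by 1 symbol. They were taken by name. Each was read from its brightest probe set, and all 10 passed the filter on low values, which kept 11413 genes.

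The mice were females of C57BL/6J, 129X1/SvJ, Balb/c, A/J and DBA/2J, aged 8 weeks, with no genetic change named. Splenic CD4+ cells were taken on magnetic beads and measured unstimulated (T0) or after 4 h (T1) with PMA at 10 ng/ml and ionomycin at 1 uM. PMA activates protein kinase C and the Ras pathway, and ionomycin raises cell calcium, so the T cell receptor is bypassed. The 34 arrays held 4 per time for A/J and for C57BL/6J and 3 per time for each other strain, and the labels call the replicates biological. The study's text calls T0 the basal state, but its treatment protocol can also be read as culture of both portions. If T0 cells were not cultured, culture and stimulus cannot be told apart in any T1 minus T0 difference.

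MAP kinases are switched on when both a threonine and a tyrosine of the activation loop are phosphorylated, and the dual specificity phosphatases remove both phosphates. In T cells the ERK branch follows Ras, and the JNK and p38 branches follow co-stimulation and stress. Many of these phosphatases are themselves transcribed in response to MAP kinase activity and so form a delayed brake on the pathway. Dusp1, Dusp2, Dusp4 and Dusp5 are nuclear enzymes, Dusp6 and Dusp7 are cytoplasmic enzymes that prefer ERK, and Dusp8, Dusp10 and Dusp16 prefer JNK and p38. Dusp14 is a small enzyme without the kinase binding domain of the others.

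Motifs were searched in the promoters of the members and found in those of Dusp1, Dusp2, Dusp5 and Dusp8. The other matched promoters held none of them. RefSeq promoters (build GRCm38.p6) were matched for 9 of the 10 members, and the 250 bases before each start were searched on both strands. The stretches from 150 to 41 bases before the start are printed 5′ to 3′ along the gene for the 4 members in which a searched motif fell in that window, and for Dusp10, the member that fell most after stimulation. They lie at chr17:26508513-26508622 on the minus strand for Dusp1, at chr2:127336009-127336118 on the plus strand for Dusp2, at chr19:53528995-53529104 on the plus strand for Dusp5, at chr7:142095325-142095434 on the minus strand for Dusp8 and at chr1:184034231-184034340 on the plus strand for Dusp10. Capitals mark the motifs searched.
Dusp1: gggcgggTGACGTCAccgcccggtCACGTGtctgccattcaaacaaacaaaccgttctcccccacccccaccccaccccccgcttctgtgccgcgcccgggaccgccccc
Dusp2: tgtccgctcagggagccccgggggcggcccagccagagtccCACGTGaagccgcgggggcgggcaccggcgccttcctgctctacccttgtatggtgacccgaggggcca
Dusp5: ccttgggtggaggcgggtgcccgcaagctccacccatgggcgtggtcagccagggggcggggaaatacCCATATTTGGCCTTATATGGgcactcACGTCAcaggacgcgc
Dusp8: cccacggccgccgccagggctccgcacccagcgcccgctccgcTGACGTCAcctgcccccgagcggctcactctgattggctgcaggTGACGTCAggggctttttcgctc
Dusp10: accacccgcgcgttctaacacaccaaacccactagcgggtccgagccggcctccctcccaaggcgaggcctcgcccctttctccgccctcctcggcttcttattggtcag

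The cAMP response element TGACGTCA, a site for CREB and ATF factors, was present in Dusp1 and, in 2 copies, in Dusp8. It occurred in 1.55% of the 32851 promoters of the same length. Its shorter form TGACGT overlaps the full element and was found in Dusp1, Dusp5 (on the opposite strand, read as ACGTCA) and Dusp8, against 6.47% of all promoters. Dusp5 had a pair of adjacent CArG boxes, the serum response factor motif, which 1.47% of all promoters held. The E-box CACGTG, bound by MYC and USF factors, was in Dusp1 and Dusp2 and in 6.02% of all promoters. The AP-1 motif TGANTCA was in none of the 9 windows and in 6.75% of all promoters. A match is a description of letters, and its use in these cells was not measured.

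Some features of the arrays bear on every result. The values are RMA log2 intensities, which measure each gene against the rest of its array, and the median T1 minus T0 difference over all genes was -0.07. Cd4 lay between 9.23 and 9.58 at T0 in the group means and between 8.02 and 8.95 at T1, and Cd3e between 9.07 and 9.71 at T0, all above the filter limit of 5.327. Markers of B cells, erythroid cells, neutrophils, myeloid cells, and CD8 T and NK cells were also detected. The group means of the kept myeloid markers ran from 6.90 to 7.25 at T0 and from 6.24 to 6.67 at T1. For the kept CD8 T and NK cell markers they ran from 5.70 to 6.40 at T0 and from 4.98 to 5.46 at T1. The mean of the 6 erythroid markers at T0 was 8.64 in A/J and 5.27 in 129X1/SvJ, and at T1 it was 8.78 and 5.28. The B cell markers fell at T1 on average (7 of 9 called lower and 2 higher, against 46.3% and 36% of all genes). All 9 reached the limit in some group. In bulk RNA, fewer cells of a type and less RNA per cell cannot be told apart. Arrays numbered 1 and 2 within a strain also stood apart from those numbered 3 to 5, and the labels do not say what the number marks. Balb/c T1 replicate 2 lay away from its group, and the Balb/c responses of the members are also given without it.

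After stimulation, 8 of the 10 phosphatases rose and 2, Dusp10 and Dusp7, fell. All 10 passed the test of the mean over strains in limma, which called 82.3% of all genes. The background was 36% for rises and 46.3% for falls. Rises of at least 1 on the log2 scale were seen for 7 members, against 6.23% of all genes, and a fall of at least 1 for Dusp10, against 9.58%. In 7 members every T1 array was above every T0 array, a pattern found in 9.28% of all genes. The median difference of the members was 1.30, and their median absolute difference was also 1.30, against 0.38 for all genes.

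**Figure D1:**
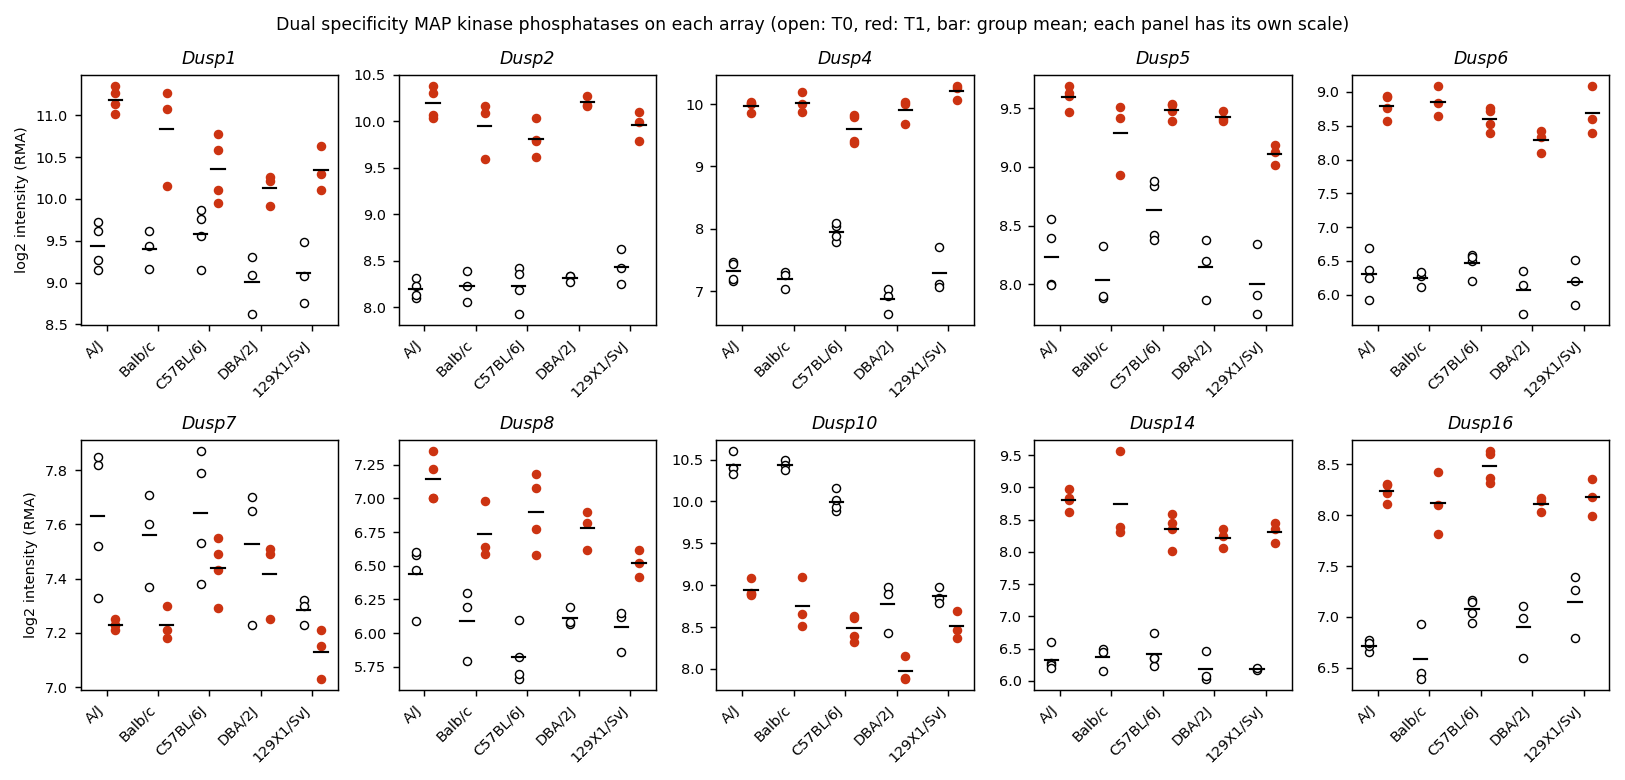
Log2 intensity (RMA) of each member on each of the 34 arrays, by strain, with open circles for T0, red circles for T1 and bars for group means. Each panel has its own scale. In 7 panels the red points all lie above the open points, in the Dusp10 panel they lie below within each strain, and T0 levels of Dusp10 form a high and a low set of strains.

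Among the nuclear enzymes, Dusp4 had the largest rise of all 10 members. It ran from 6.64 to 8.10 over the 17 T0 arrays, with a median of 7.26, and from 9.38 to 10.29 over the 17 T1 arrays, with a median of 10.00. The mean difference was 2.62 ± 0.06 (SE), a 6.13-fold rise (adjusted p = 2.06e-25). Dusp2, known from activated T cells, ran from 7.93 to 8.62 at T0 and from 9.59 to 10.38 at T1. It rose 3.36-fold, by 1.75 ± 0.06 (adjusted p = 6.41e-22). The T0 and T1 ranges of both genes were separated by a clear gap.

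Dusp1 acts on p38, JNK and ERK. Its values ran from 8.63 to 9.87 at T0 and from 9.92 to 11.35 at T1, so the ranges nearly touched. The rise was 1.26 ± 0.10, or 2.40-fold (adjusted p = 2.24e-12). Dusp5, which is specific for ERK, ran from 7.75 to 8.88 at T0 and from 8.93 to 9.69 at T1, again without overlap. Its rise was 1.17 ± 0.07, or 2.25-fold (adjusted p = 2.07e-15).

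The cytoplasmic pair of ERK phosphatases moved in opposite directions. Dusp6, a widely used readout of ERK activity, ran from 5.72 to 6.69 at T0 and from 8.09 to 9.09 at T1. It rose 5.25-fold, by 2.39 ± 0.08 (adjusted p = 4.59e-22). Dusp7 ran from 7.23 to 7.87 at T0 and from 7.03 to 7.55 at T1, and these ranges overlapped for most of their length. Its mean difference was -0.24 ± 0.06 (adjusted p = 0.000351 in limma). Of 17 same-numbered pairs 15 were lower at T1, but the numbers are not known to pair samples. The Dusp7 call was lost within the arrays numbered 3 to 5, where the difference was -0.14.

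The enzymes that prefer JNK and p38 also split. Dusp16 ran from 6.39 to 7.39 at T0 and from 7.82 to 8.63 at T1, and rose 2.53-fold, by 1.34 ± 0.07 (adjusted p = 6.45e-18). Dusp8 ran from 5.66 to 6.60 at T0 and from 6.42 to 7.35 at T1, ranges that overlapped over all strains but in no single strain. Its rise was 0.72 ± 0.07, or 1.64-fold (adjusted p = 3.41e-11). A second Dusp8 probe set was dim, with means of 4.34 at T0 and 4.73 at T1, and differed by 0.39 ± 0.07 (adjusted p = 7.19e-06 with no filter).

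Dusp10 was the member that fell clearly. Its values ran from 8.43 to 10.60 at T0, with a median of 10.02, and from 7.88 to 9.10 at T1, with a median of 8.61. All 17 same-numbered pairs were lower at T1, and the mean difference was -1.17 ± 0.06, a 2.25-fold fall (adjusted p = 8.22e-18). The overlap over all strains came from the T0 arrays of DBA/2J and 129X1/SvJ, which read 8.98 or less. Within each strain, every T1 array was below every T0 array.

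The atypical enzyme Dusp14 ran from 6.03 to 6.74 at T0 and from 8.02 to 9.56 at T1. It rose 4.57-fold, by 2.19 ± 0.09 (adjusted p = 3.44e-20). The top value, 9.56, was on Balb/c T1 replicate 2, while the other arrays of that group read 8.30 and 8.38. Without that array the Balb/c rise went from 2.38 to 1.97 ± 0.16, and the mean over strains to 2.11.

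In each strain taken alone, 8 members rose, and the number that fell was 2 in A/J and Balb/c and 1 in the other strains. The calls for all genes were, for A/J, 20.3% higher and 36.3% lower. They were 20.6% and 34.1% for Balb/c, 25.1% and 38.6% for C57BL/6J, 23.8% and 36.2% for DBA/2J, and 21.6% and 34.7% for 129X1/SvJ. The same 9 members were called in every strain (13.8% of all genes rose in all 5, and 25.6% fell in all 5). Dusp7 was the exception, at -0.40 ± 0.12 in A/J (adjusted p = 0.0039) and -0.33 ± 0.13 in Balb/c (adjusted p = 0.0389). It was not called in C57BL/6J (-0.20 ± 0.12), 129X1/SvJ (-0.16 ± 0.13) or DBA/2J (-0.11 ± 0.13). The Balb/c call was lost when any 1 of 4 Balb/c arrays was left out (T0 replicates 1 and 2, T1 replicates 2 and 4), where it was -0.25, -0.31, -0.30 and -0.32. Without Balb/c T1 replicate 2 the Balb/c rises of Dusp2, Dusp5, Dusp6, Dusp8 and Dusp16 were 1.90, 1.43, 2.72, 0.69 and 1.37, against 1.73, 1.25, 2.61, 0.65 and 1.53 with it, and each kept its call. Among all rises, that of Dusp8 in 129X1/SvJ lost its call without T0 replicate 4 (0.39, against 0.48) and in numbers 1 and 2 (0.34), and that of Dusp1 in C57BL/6J in numbers 1 and 2 (0.67, against 0.77).

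**Figure D2:**
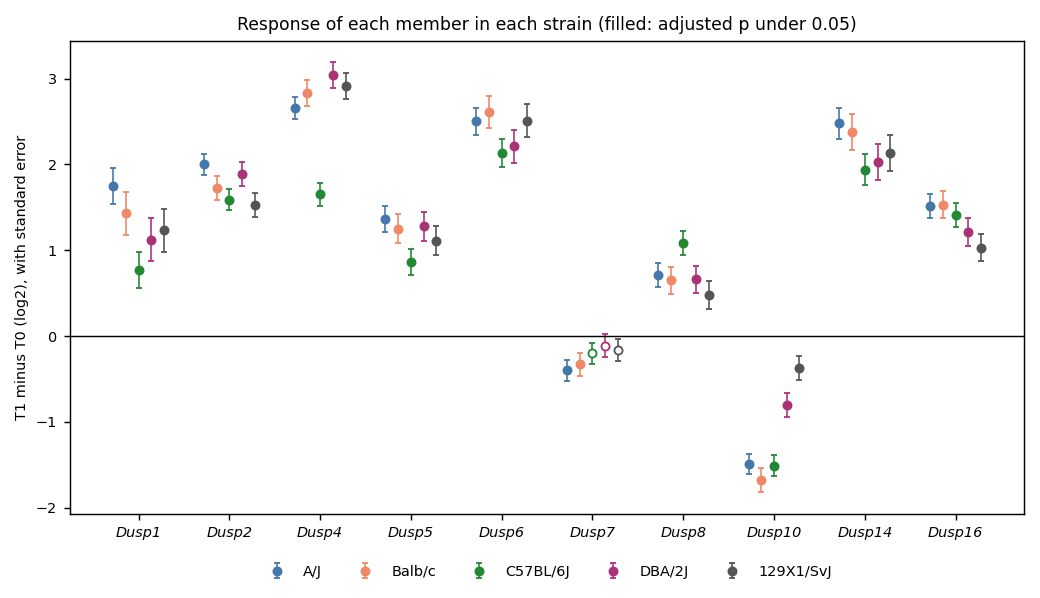
T1 minus T0 difference (log2) of each member in each of the 5 strains, with the standard error from the limma model. Filled points are called at an adjusted p under 0.05. C57BL/6J stands low for Dusp4, at 1.65, and DBA/2J and 129X1/SvJ stand nearer to 0 than the other strains for Dusp10, at -0.80 and -0.37.

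Whether strains differed in the size of the response was tested by the moderated F test of the interaction. It called Dusp4 and Dusp10, 2 of the 10 members, against 6.92% of all genes. For the other 8 the adjusted p ran from 0.244 (Dusp1) to 0.769 (Dusp7), which does not show that their responses were equal. The largest range among them was that of Dusp1, from 0.77 ± 0.21 in C57BL/6J to 1.75 ± 0.21 in A/J. Dusp1 was also called for the response when strain and number were set as a replicate block. The count of 2 members therefore holds for arrays taken as unpaired, and the Dusp1 result depends on that choice.

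Of the 5 strains, C57BL/6J had the highest Dusp4 level at T0 and the smallest Dusp4 response. At T0 its 4 C57BL/6J arrays read 7.78, 7.88, 8.04 and 8.10. The A/J arrays read 7.17, 7.19, 7.47 and 7.43, those of Balb/c 7.30, 7.03 and 7.26, those of DBA/2J 6.64, 7.03 and 6.93, and those of 129X1/SvJ 7.11, 7.07 and 7.70. No T0 array of another strain reached the lowest C57BL/6J array.

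At T1 the C57BL/6J arrays read 9.79, 9.41, 9.82 and 9.38. Those of A/J read 10.03, 10.02, 10.00 and 9.85, those of Balb/c 10.20, 9.87 and 10.00, those of DBA/2J 10.03, 10.00 and 9.68, and those of 129X1/SvJ 10.26, 10.06 and 10.29. C57BL/6J was thus lowest on average at T1, at 9.60, although its arrays overlapped those of DBA/2J.

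The Dusp4 response was 1.65 ± 0.13 in C57BL/6J, or 3.14-fold. It was 2.66 ± 0.13 in A/J, 2.83 ± 0.15 in Balb/c, 2.91 ± 0.15 in 129X1/SvJ and 3.04 ± 0.15 in DBA/2J, or 6.31-fold to 8.23-fold. The responses differed among strains (adjusted p = 5.17e-05). C57BL/6J was lower than each other strain, by 1.01 against A/J, 1.18 against Balb/c, 1.39 against DBA/2J and 1.26 against 129X1/SvJ, with adjusted p of 0.00318, 0.0016, 5.28e-05 and 0.000212 in limma. Without Balb/c T1 replicate 2 the Balb/c response was 2.91 ± 0.17, and it exceeded that of C57BL/6J by 1.26 (adjusted p = 0.00155). The other 6 pairs were not called, and pairs called for the response made up 2.02% over all genes. Within the arrays numbered 1 and 2 the interaction had an adjusted p of 0.0216, with C57BL/6J at 1.77 and the others from 2.85 to 3.40, and within those numbered 3 to 5 it had 0.0432, with 1.53 against 2.47 to 2.86. Neutrophil markers moved with strain too, with the lowest mean in C57BL/6J at T0, 5.33, against 6.56 to 7.41 elsewhere. All 7 kept markers of that list were counted in these means, and 6 of them fell at T1, against 46.3% of all genes. The part of these cells in the Dusp4 result was not tested.

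Dusp10 split the strains into a high and a low set at T0. The A/J arrays read 10.40, 10.60, 10.40 and 10.33, those of Balb/c 10.50, 10.43 and 10.38, and those of C57BL/6J 9.88, 10.16, 9.93 and 10.02. By contrast, the DBA/2J arrays read 8.98, 8.90 and 8.43 and those of 129X1/SvJ 8.98, 8.85 and 8.79. The lowest array of the high set, 9.88, was well above the highest of the low set, 8.98.

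At T1 this split was narrower, and 129X1/SvJ, at a mean of 8.51, was level with C57BL/6J, at 8.49. A/J arrays read 8.91, 9.09, 8.89 and 8.88, Balb/c arrays 9.10, 8.51 and 8.65, C57BL/6J arrays 8.39, 8.63, 8.32 and 8.61, 129X1/SvJ arrays 8.69, 8.47 and 8.37, and DBA/2J arrays 7.88, 7.89 and 8.15. DBA/2J alone lay below every array of the other strains, and 129X1/SvJ overlapped C57BL/6J.

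The Dusp10 difference was -1.51 ± 0.12 in C57BL/6J, -1.49 ± 0.12 in A/J and -1.68 ± 0.14 in Balb/c. The smaller falls were -0.80 ± 0.14 in DBA/2J (adjusted p = 1e-05) and -0.37 ± 0.14 in 129X1/SvJ (adjusted p = 0.0237). The falls differed among strains (adjusted p = 3.39e-05). Each of A/J, Balb/c and C57BL/6J differed from each of DBA/2J and 129X1/SvJ, by 0.70 to 1.31, with adjusted p from 0.000116 to 0.0263 in limma. The same-numbered DBA/2J differences were uneven, at -1.10, -1.01 and -0.28. Leaving out 1 array gave a DBA/2J fall between -0.97 and -0.69, and 8 to 10 pair calls for the response over all members. DBA/2J and 129X1/SvJ were not shown to differ from each other (0.43 ± 0.19, adjusted p = 0.703), nor were A/J, Balb/c and C57BL/6J among themselves. Without Balb/c T1 replicate 2 the Balb/c fall was -1.56 ± 0.15, and it differed from DBA/2J by 0.76 and from 129X1/SvJ by 1.19 (adjusted p = 0.019 and 0.000473). Within the arrays numbered 1 and 2 the interaction of Dusp10 had an adjusted p of 0.0787 and within those numbered 3 to 5 of 0.0731, so the call was not made in either set alone. The differences were of similar size in the sets, at -1.50 and -1.49 in A/J, -1.66 and -1.73 in Balb/c and -1.51 in both for C57BL/6J, except for -1.10 and -0.64 in DBA/2J. With the number set as a term it was 1.24e-05.

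The 129X1/SvJ fall of Dusp10 was the smallest. Its call was lost without T0 replicate 1 (-0.31), T1 replicate 2 (-0.35) or T1 replicate 4 (-0.30) of that strain, and within either number set (-0.34 and -0.43). B cell markers were higher in the strains with less Dusp10 at T0. Their mean over the 9 markers was 8.47 in DBA/2J and 8.63 in 129X1/SvJ, but only 7.83 for Balb/c, 7.77 for C57BL/6J and 7.50 for A/J, and at T1 it lay between 6.41 and 6.79. Over the 7 T cell markers the mean was 9.66 to 10.02 at T0. At T1 it was 9.04 in 129X1/SvJ and 9.09 in DBA/2J, against 9.41 in C57BL/6J, 9.58 in Balb/c and 9.69 in A/J. All 7 differed among strains at T1 in the moderated F test, against 31% of all genes, and 3 of the 7 in the response, against 6.92%. The part of these cells in the Dusp10 result was not tested.

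Il4, a cytokine gene picked out after its values were seen, had the same split of the strains at T0. The means of Il4 were 6.89 in DBA/2J and 6.85 in 129X1/SvJ, against 9.72 for C57BL/6J, 10.29 for Balb/c and 10.61 for A/J. At T1 the split was gone, with means from 10.65 in 129X1/SvJ to 11.79 in DBA/2J.

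Before stimulation, the moderated F test over strains called 5 members, Dusp4, Dusp5, Dusp8, Dusp10 and Dusp16, against 18.5% of all genes. Dusp10 had the widest spread, from 8.77 in DBA/2J to 10.44 in A/J, a 3.17-fold range (adjusted p = 1.42e-12), and C57BL/6J, at 10.00, was above 129X1/SvJ, at 8.88 (adjusted p = 1.73e-07). The A/J and Balb/c levels did not differ beyond their spread. For Dusp4 the range was 6.86 in DBA/2J to 7.95 in C57BL/6J, or 2.13-fold (adjusted p = 1.07e-05). C57BL/6J was above A/J, the next strain, by 0.63 ± 0.13 (adjusted p = 0.00152), and no other neighbours in that order were called. Pairs called at T0 made up 7.01% over all genes.

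The other T0 differences were small and rested on few arrays. Dusp5 was highest in C57BL/6J, 8.63 ± 0.27 (SD, n = 4), and lowest in 129X1/SvJ, 8.00 ± 0.30 (SD, n = 3), with an adjusted limma p of 0.018. That call was lost without C57BL/6J T0 replicate 3 (0.0994) or 4 (0.105). Dusp8 ran from 5.82 in C57BL/6J to 6.43 in A/J (adjusted p = 0.0194) and lost its call without A/J T0 replicate 1, 4 or 5 or C57BL/6J T0 replicate 1 or 2, where the adjusted p was 0.0778, 0.0542, 0.0824, 0.0607 and 0.0578. Dusp16 ran from 6.59 in Balb/c to 7.15 in 129X1/SvJ (adjusted p = 0.024), and lost its call without Balb/c T0 replicate 1 (0.0788) or 2 (0.0842), or 129X1/SvJ T0 replicate 1 (0.062) or 4 (0.0687). No neighbours in the order of these 3 genes differed beyond their spread. A term for the number set, fitted over all arrays, left the T0 calls of Dusp5, Dusp8 and Dusp16 in place, and Dusp7 gained one. Each number set taken alone holds fewer arrays, so a call lost there does not show that the strains were alike.

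Within the arrays numbered 1 and 2 the T0 test kept Dusp4 (adjusted p = 0.00667) and Dusp10 (0.000114), and within those numbered 3 to 5 it kept both again (0.00653 and 7.05e-05). Dusp5, Dusp8 and Dusp16 were called in neither set, with adjusted p of 0.152, 0.247 and 0.146 in numbers 1 and 2 and 0.066, 0.162 and 0.171 in numbers 3 to 5. Dusp7 was called in numbers 1 and 2 only (0.0278), against 0.214 over all arrays.

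At T1, 5 members were called between strains, Dusp1, Dusp4, Dusp8, Dusp10 and Dusp14, against 31% of all genes. Dusp1 was highest in A/J, where arrays read 11.01, 11.35, 11.26 and 11.13, and lowest in DBA/2J, where they read 9.92, 10.22 and 10.26. Its 5 strain means spanned 1.05, or 2.08-fold (adjusted p = 0.0031), and A/J was above C57BL/6J by 0.83, DBA/2J by 1.05 and 129X1/SvJ by 0.84. Balb/c arrays read 11.27, 10.15 and 11.07. Without the array at 10.15 the Balb/c response of Dusp1 went from 1.43 to 1.77 ± 0.24, and the T1 test to an adjusted p of 0.000166. Balb/c was then also called above C57BL/6J, DBA/2J and 129X1/SvJ, by at least 0.82 (adjusted p = 0.0245, 0.00409 and 0.0239). The response test of Dusp1 without it had an adjusted p of 0.0523. Within the number sets the T1 test of Dusp1 had 0.0798 (numbers 1 and 2) and 0.00261 (numbers 3 to 5). Pairs called at T1 made up 10% over all genes.

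Dusp10 ran from 7.97 in DBA/2J to 8.94 in A/J at T1 (adjusted p = 2.51e-05), a 1.96-fold range, and was called in both number sets (0.0435 and 0.0295). C57BL/6J was above DBA/2J by 0.51 ± 0.13 (adjusted p = 0.00629), the one neighbouring pair called at T1. Dusp4 ran from 9.60 in C57BL/6J to 10.20 in 129X1/SvJ (adjusted p = 0.0158) and lost its call without C57BL/6J T1 replicate 2 (0.0668) or 4 (0.0665) and in both sets (0.164 and 0.143). Dusp8 ran from 6.52 in 129X1/SvJ to 7.14 in A/J (adjusted p = 0.0175), and lost its call without A/J T1 replicate 1 (0.0621) or 129X1/SvJ T1 replicate 1 (0.0543) and in both sets (0.073 and 0.483).

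A term for the number set, fitted over all arrays, left the T1 calls of Dusp1, Dusp4, Dusp8, Dusp10 and Dusp14 in place. Dusp2, Dusp6 and Dusp7 then gained a T1 call. Under a term for each number, Dusp14 lost its call. The T1 difference of Dusp14 was the weakest call. Its means ran from 8.22 in DBA/2J to 8.81 in A/J (adjusted p = 0.0438), and 16 of the 34 fits that left out 1 array lost it. The adjusted p was 0.0979 without A/J T1 replicate 4 and 0.00534 without Balb/c T1 replicate 2. Neither number set gave a call (0.308 and 0.132). Dusp2 lay just outside, at 0.0513, and passed in 10 of the 34 fits, with 0.0207 without Balb/c T1 replicate 2.

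The share of each gene's variation was set mostly by stimulation in some members and less so in others. Stimulation accounted for 88.7% to 95.3% of the sum of squares in Dusp2, Dusp4, Dusp6, Dusp14 and Dusp16, against a median of 45.8% over all genes. In Dusp10 it was 52.8%, with 35.9% for strain and 8.5% for the interaction, where the medians over all genes were 9.9% and 4.7%. Dusp7 had the largest residual share, 38.4%.

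**Figure D3:**
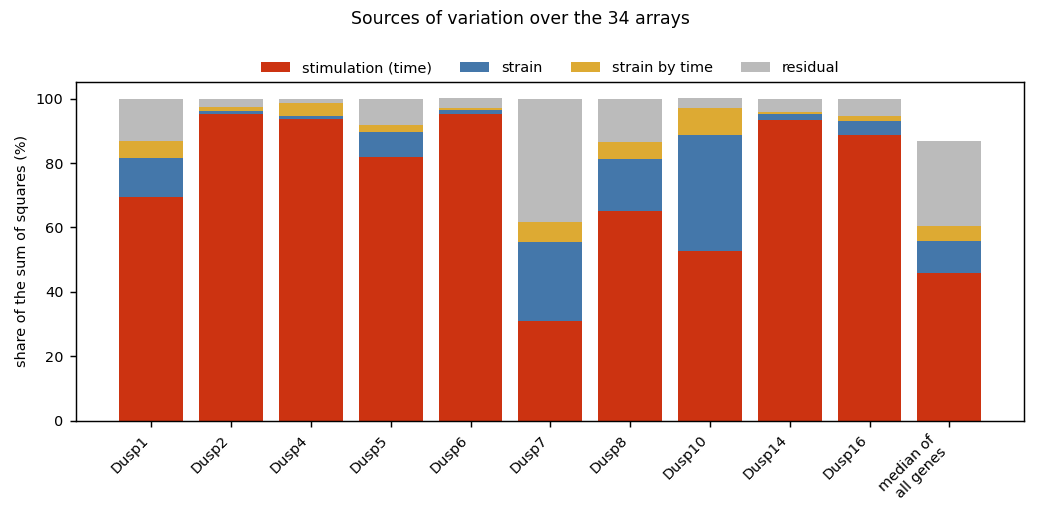
Share of the sum of squares (%) over the 34 arrays taken by stimulation, strain, their interaction and the residual, for each member and for the median of all genes, whose 4 medians need not add up to the whole. Strain takes 35.9% in Dusp10 and 24.6% in Dusp7, against 1% in Dusp2 and Dusp4.

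Replicate arrays of a group also differed from each other in a shared way. The arrays numbered 3 to 5 were higher than those numbered 1 and 2 by 0.37 ± 0.08 for Dusp1 (adjusted p = 0.00191), 0.26 ± 0.06 for Dusp5 (0.0021) and 0.21 ± 0.07 for Dusp6 (0.0309), and lower for Dusp7 by -0.17 ± 0.05 (0.00871). These were 4 of the 10 members, against 27.4% of all genes, so the share is near the background.

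Dusp1 and Dusp6 deviated together also within a number set. The 28 arrays that had a partner of the same strain, time and number set formed 14 pairs, and deviations were taken from the mean of each pair. In all 14 pairs the array with more Dusp1 also had more Dusp6. Pearson's r was 0.81 and Spearman's rho 0.87, both with an exact two-sided permutation p of 0.000122, the smallest that exchanges within the pairs can give. Over the 45 combinations of members the adjusted p of each was 0.00549 in that exact permutation test. The test exchanged the T0 and T1 pairs of the same strain and numbers independently. The labels do not say whether a number marks the same sample at both times. If it does, fewer independent exchanges exist and these p are too small.

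Without the 2 arrays farthest from the median r was 0.88. It was 0.86 at T0 alone, 0.81 at T1 alone, 0.85 in numbers 1 and 2 (8 pairs of arrays) and 0.72 in numbers 3 to 5 (6 pairs of arrays). No other combination passed, and Dusp1 with Dusp5 had r = 0.85 with an adjusted exact permutation p of 0.124. Both genes were read from the same RNA and array, and this test was added after the data were seen.

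**Figure D4:**
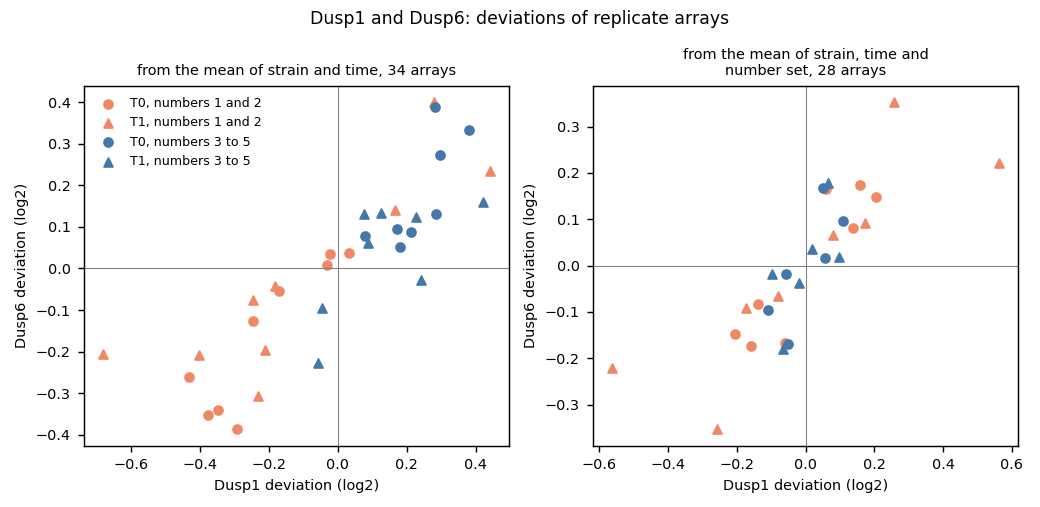
Deviation of Dusp6 against deviation of Dusp1 (both log2), from the mean of each strain and time over 34 arrays (left) and from the mean of each pair of arrays of 1 strain, time and number set (right, 28 arrays, mirrored points for each pair). Circles are T0, triangles T1, and colours mark the number sets. The points follow a rising line in both panels, with r = 0.81 in the right panel.

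The genes around the phosphatases in the pathway were counted from lists chosen by function. Over all genes 36% were called higher and 46.3% lower, and each list count is to be read beside these shares. The list of other DUSP genes had 11 that passed the filter, of which 6 rose and 4 fell. Their median was 0.18, and Dusp9, at 0.07, missed the threshold. Dusp22, which regulates Lck in T cells, rose by 2.70 ± 0.08, Dusp18 by 0.94 ± 0.06 and Dusp3, which acts on ERK and JNK, by 0.79 ± 0.07. Lower were Styx, a catalytically inactive relative, at -0.60, Dusp28 at -0.43, Dusp19 at -0.39 and Dusp11 at -0.12. Of 7 phosphatases of other families that act on MAP kinases, 3 rose and 2 fell, with Ptpn5 at 0.61, Ppm1b at -0.43 and Ppm1d at -0.86. Their median was -0.03.

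Of 8 MAP kinases, 2 rose and 4 fell (over all genes 36% rose and 46.3% fell). Mapk6, which encodes the atypical kinase ERK3, rose by 2.54 ± 0.04, while Mapk9 (JNK2) and Mapk11 (p38 beta) were at -1.04 and -1.03 and Mapk8 (JNK1) at 0.26. Among 5 MAP kinase kinases, 1 rose and 3 fell. Map2k3, which activates p38, rose by 1.86 ± 0.05, and Map2k5 and Map2k2 were at -1.36 and -0.67.

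Of 25 upstream kinases and Ras exchange factors, 18 fell and 4 rose, against 46.3% and 36% of all genes, with a median of -0.45. Map3k5 rose by 1.69, Map3k8, which activates the ERK branch, by 1.35, Ksr1 by 0.66 and Map3k7 by 0.11, and Map3k3 was at -1.29. Among 17 kinase substrates, 11 fell and 6 rose, with a median of -0.30. Jun was at 1.75, Mapkapk2 at 1.25, Srf at 0.75, Nfatc1 at 0.65, Mapkapk3 at 0.24 and Mapkapk5 at 0.16, against -1.54 for Mknk2. Of 19 genes known to follow ERK activity, 18 rose, with a median of 1.71. Spry1 was at 4.19, Egr2 at 3.24 and Myc at 3.22, and Mcl1 fell by 0.72 on the log2 scale.

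**Figure D5:**
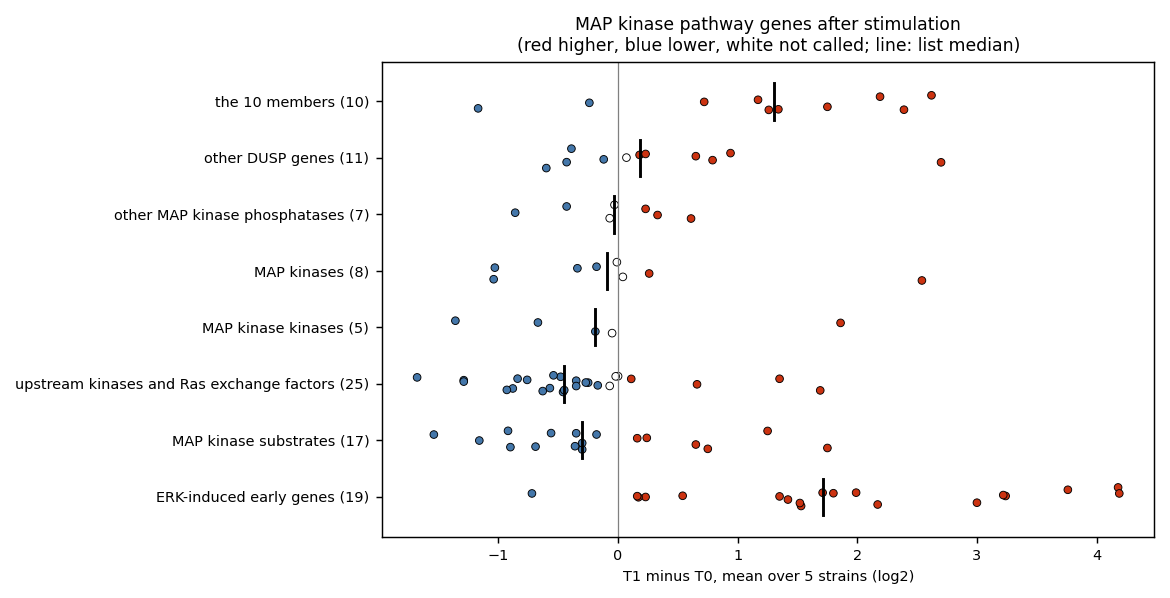
T1 minus T0 difference (log2, mean over 5 strains) of every gene in the members' group and in 7 lists of pathway genes, 1 point per gene, red called higher, blue called lower and white not called. Vertical lines are list medians, at 1.30 for the members, 1.71 for the ERK-induced early genes and -0.45 for the upstream kinases and Ras exchange factors.

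For the members with strain differences in the response, the genes most like them were found by Pearson's correlation over the 10 group means. Closest to Dusp4 were Hspa5, the chaperone BiP of the endoplasmic reticulum, and Eea1, an early endosome protein, both with r of 0.994. At T0 Eea1 was highest in C57BL/6J as well, at 7.61, with the other strains at 7.28 or less. It ran from 9.77 in C57BL/6J to 10.20 in 129X1/SvJ at T1. Hspa5 set C57BL/6J less apart, at 11.10 at T0 against 11.03 in 129X1/SvJ. At T1 Hspa5 was 12.00 in both C57BL/6J and A/J. Stimulation took 93.6% of the sum of squares of Dusp4, so this r mostly reflects the change from T0 to T1. The genes nearest to Dusp10 were 1700056E22Rik, an unnamed transcript, and Bcl2, which blocks apoptosis, both with r of 0.973. At T0 Bcl2 was 9.52 ± 0.51 in Balb/c (SD, n = 3), 9.44 ± 0.72 in A/J (SD, n = 4) and 8.85 ± 0.38 in C57BL/6J (SD, n = 4). It was lower in the same 2 strains as Dusp10, at 8.21 ± 0.12 in DBA/2J and 8.05 ± 0.28 in 129X1/SvJ (SD, n = 3 each). These likenesses are descriptions over group means that share the same arrays. The genes were picked for their likeness over these same means, so a similar strain pattern follows from the choice.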

How the data were processed

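RNA of CD4+ spleen cells was hybridised to Affymetrix arrays, 34 in all. Per the labels, the authors' deposited values are log2 intensities made with RMA (background correction, quantile normalization, summary per probe set). Neither the RMA version nor the probe set definitions are given in the sources used here.

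Of 35556 probe sets, 21789 had 1 symbol, 1621 several and 12146 none. Each gene was its brightest such probe set, and a gene was kept when its highest group mean reached 5.327, the median of all values. RefSeq (GRCm38.p6) matched 21698 probe sets by gene identifier and gave the promoters.

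A model with 10 groups (strain by time) was fitted with limma 3.58.1 in R 4.3.3. Benjamini-Hochberg adjustment ran over the 11413 kept genes, with calls at an adjusted p under 0.05. Named genes were the members, the 3 genes per list with the largest moderated statistic and those called against their list's direction, the 2 genes most like each member called for the response, Cd4 and Cd3e. The number of arrays limits precision. The members and lists were chosen with earlier results of these data known. The procedure was tested on simulated data. Alternatives covered the filter, probe sets, normalization, variance model, replicate number and each array.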

Additional observations from a re-analysis of the deposited data

Results flagged for a closer look

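The Dusp4 response differed among strains (limma F test of the interaction, adjusted p = 5.17e-05), with C57BL/6J at 1.65 and the other strains from 2.66 to 3.04. Dusp10 also had a response that differed among strains (limma, adjusted p = 3.39e-05), from -1.68 in Balb/c to -0.37 in 129X1/SvJ.

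Single arrays stood away from their group of 4 in 2 of the 40 such groups tested, and chance alone marks about 1 group in 20. Dusp4 read 9.85 on A/J T1 replicate 5, against 10.00 to 10.03 on the other 3 arrays. Dusp10 read 9.09 on A/J T1 replicate 2, against 8.88 to 8.91 on the others. Both groups were narrow, and both genes kept their calls for the mean stimulation without these arrays.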

How the results depend on the processing

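The 90 member values and tests were repeated over 11 settings and 34 fits that left out 1 array. They gave 3958 results on the same side of the threshold, 67 weaker, 24 stronger and 1 reversed. The first count is large partly because leaving out an array of another strain cannot alter a strain's own T1 minus T0 estimate. The T1 tests of Dusp14 and Dusp2 changed side in 16 and 10 of the 34 fits. The reversed one was Dusp7 in DBA/2J, 0.0019 after a further quantile normalization against -0.11. Settings for the numbered arrays were added after the data were seen. Within arrays numbered 1 and 2, members called were 3 at T0, 1 at T1 and 1 for the response (5, 5 and 2 over all arrays). Pair calls were 1 at T1 and 2 for the response (12 and 10), and genes called 984 at T0, 779 at T1 and 112 for the response (2107, 3533 and 790). Within numbers 3 to 5, members called were 2 at T0, 2 at T1 and 1 for the response, and pair calls 7, 4 and 1 (16, 12 and 10). Genes called were 2878 in Balb/c (6238), 4148 in 129X1/SvJ (6427), 923 at T0, 1764 at T1 and 175 for the response. These sets hold fewer arrays, and where a group had 1 array (DBA/2J in the first set, Balb/c and 129X1/SvJ in the other) it was assumed to vary like the rest. A term for the number set gave 8 members and 19 pair calls at T1, and a term for each number gave 20 pair calls. The stricter filter left 4 called genes among the other DUSP genes (10), since fewer were tested. Leaving out 1 array gave 3 to 6 members and 9 to 20 pair calls at T1, the highest without Balb/c T1 replicate 2, and 4 to 5 members at T0. The pairing by replicate number was checked: deviations of same-numbered T0 and T1 arrays correlated at over 0.1 in 14 of 17 pairs (from -0.0785 to 0.474, median 0.258, against -0.109 for other numbers of the strain). Of the 34 arrays, 25 correlated best with their own number, a hint of pairing from the data. Each number at T0 also occurs at T1 in its strain, so pairing remains possible. Since 3 pairs were not over 0.1 and the labels do not say what a number marks, the arrays were not treated as paired. With strain and number as a replicate block, every member kept its call for the mean stimulation, Dusp1 gained a call for the response and Dusp14 lost its call at T1. Their adjusted p in limma was 0.0197 (0.244 without the block) and 0.0526 (0.0438). The cause of the changes was not tested. The second probe set of Dusp8 was below the filter limit on every array, from 3.96 to 5.13.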
